A study of Mus musculus with 11 samples.

Results

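A set of 10 immediate early genes was followed across sorted blood stem and progenitor cells of mouse bone marrow: the zinc finger factors Egr1, Egr2 and Egr3, the AP-1 subunits Fos, Fosb, Jun, Junb and Jund, the orphan nuclear receptor Nr4a1 and the nuclear protein Ier2. They were taken by gene symbol, and all 10 were found among the 54347 genes of the count table. Of these, 8 passed the low-count filter and were tested among 14915 genes, while Egr2 and Egr3 did not pass. The libraries formed 3 groups. The first was 4 libraries of EMCN+ long-term haematopoietic stem cells (LT-HSCs, CD150+CD48-LSK, where LSK denotes lineage-negative, Sca-1-positive and c-Kit-positive cells). EMCN is endomucin, a sialomucin of the cell surface. The second was 3 libraries of EMCN- LT-HSCs, which have the same gate without EMCN, and the third was 4 libraries of granulocyte-monocyte progenitors (GMPs). All cells came from female C57BL/6NTac mice, with no treatment or genetic change named in the labels and the age not given in the sources used here. The same 4 mice, numbered 1 to 4, gave the 3 populations, except that mouse 3 has no EMCN- library here; the submitters took 1 EMCN- library out because of its quality. Per the labels' protocols, crushed bones gave a marrow suspension that was depleted of lineage-positive cells, stained in the cold and sorted by flow cytometry before RNA was isolated, so each value describes cells after that handling.

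Immediate early genes are transcribed within minutes of a growth factor, stress or contact signal, from factors that are already bound or present in the cell and without new protein synthesis. Signals through the MAP kinase, calcium and cyclic AMP pathways reach serum response factor with its ELK partners and the CREB and ATF factors at their promoters. Their transcripts are short-lived, and many of their targets are inhibitors of the same pathways. In mouse blood formation, Egr1 is known for keeping stem cells quiescent and in the marrow, and Nr4a1 is known for restraining stem cell proliferation and for guiding monocyte development. JUN proteins pair with FOS proteins or with each other to form AP-1, and FOS proteins need a JUN partner to bind DNA. JUNB and JUND are known as restraints on proliferation in several cell types.

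The promoters of some members that differ in their levels between stem cells and GMPs can be set beside those of members that do not. RefSeq windows on GRCm38.p6 were used for 7 member genes, and 5 are printed as the 250 bases before the start, on the gene's own strand. Capitals mark TGACG on either strand (CGTCA where it lies on the opposite strand), the core of the sites that CREB and ATF factors bind, and in Jun the 8 letters TGACATCA. Fosb, Jun and Fos represent the AP-1 members that varied most among EMCN+ and among GMP libraries. Junb represents a member higher in EMCN+ LT-HSCs than in GMPs, and Nr4a1 a member close to absent in GMPs. The windows are chr12:85473640-85473889 on the plus strand for Fos, chr7:19310046-19310295 on the minus strand for Fosb, chr4:95052223-95052472 on the minus strand for Jun, chr8:84978749-84978998 on the minus strand for Junb and chr15:101266596-101266845 on the plus strand for Nr4a1.
Fos: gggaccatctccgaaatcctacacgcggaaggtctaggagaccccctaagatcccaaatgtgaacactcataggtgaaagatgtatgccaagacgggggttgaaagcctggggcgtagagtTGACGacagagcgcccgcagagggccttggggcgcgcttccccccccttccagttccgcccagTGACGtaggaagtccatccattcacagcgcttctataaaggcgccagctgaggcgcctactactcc
Fosb: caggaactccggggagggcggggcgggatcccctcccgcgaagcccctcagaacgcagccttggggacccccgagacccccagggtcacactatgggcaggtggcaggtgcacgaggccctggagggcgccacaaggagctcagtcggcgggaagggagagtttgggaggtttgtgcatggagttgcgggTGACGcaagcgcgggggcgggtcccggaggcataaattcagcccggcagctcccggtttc
Jun: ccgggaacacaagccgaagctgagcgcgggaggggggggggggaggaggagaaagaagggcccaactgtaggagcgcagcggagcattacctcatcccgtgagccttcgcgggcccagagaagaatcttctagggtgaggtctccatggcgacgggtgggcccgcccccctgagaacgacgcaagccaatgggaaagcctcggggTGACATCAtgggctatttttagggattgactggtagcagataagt
Junb: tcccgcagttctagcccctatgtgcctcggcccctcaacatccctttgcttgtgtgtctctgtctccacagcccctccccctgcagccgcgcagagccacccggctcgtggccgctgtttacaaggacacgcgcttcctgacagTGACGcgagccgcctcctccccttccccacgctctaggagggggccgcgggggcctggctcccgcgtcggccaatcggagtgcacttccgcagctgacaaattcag
Nr4a1: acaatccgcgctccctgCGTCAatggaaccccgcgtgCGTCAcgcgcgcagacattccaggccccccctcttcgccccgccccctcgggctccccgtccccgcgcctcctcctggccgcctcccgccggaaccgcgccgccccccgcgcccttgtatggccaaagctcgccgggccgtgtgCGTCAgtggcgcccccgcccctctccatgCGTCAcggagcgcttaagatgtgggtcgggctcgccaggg

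The 7 member genes had 11 RefSeq promoter windows, 5 of them of Egr2, some of which overlap. TGACG stood in 7 of the 11 windows, from Egr2, Fos, Fosb, Junb and Nr4a1, and in 17.7% of 32817 promoter windows of the same length. Nr4a1 held it 4 times, with first bases 233, 213, 69 and 40 bases before the start. Fos held it 129 and 66 bases before its start, Fosb 60 bases and Junb 106 bases before theirs. These letters were present in the promoters of Nr4a1, higher in both LT-HSC fractions, and of Junb, higher in EMCN+ LT-HSCs. They were also present in that of Fos, which did not pass the test. Neither Jun nor Jund held TGACG, and Jund was higher in both LT-HSC fractions. A link between these letters and the levels of the genes was not tested. Egr1, Egr3 and Ier2 were not among the 7 genes searched. The CArG box, the site of serum response factor, was found in 4 of the 11 windows, all of Egr2, and in 1.47% of all windows. The overlapping Egr2 windows that begin at 67537619, 67537620 and 67537680 hold the same CArG site. They also hold the same TGACG sites, so the 7 windows with TGACG count these sites more than once. Sites more than 250 bases before a start were not searched in any gene. The whole palindrome TGACGTCA, the AP-1 site TGACTCA and the EGR site GCGTGGGCG were in none of the 11 windows, against 1.55%, 4.46% and 0.536% of all windows. GGGCGG, which SP factors bind, was in 6 of the 11 and in 32.7% of all windows, and TATAAA was in that of Fos alone and in 12.4% of all windows. TGACATCA was searched after the sequences had been seen; it lay 45 bases before the start of Jun and in 2.93% of all windows. All motifs were searched on both strands, and every match is a description of letters in these windows. TGACG lies within TGACGTCA.

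The libraries held 3629234 to 11141483 estimated counts. Levels are given in CPM, the usual share of a library's counts on a common scale, here with TMM factors, which ranged from 1.098 to 1.311 in the LT-HSC libraries and from 0.6682 to 0.7569 in the GMP libraries, and a single count was worth 0.0697 to 0.235 CPM. Emcn itself averaged 26.2 ± 1.37 CPM in EMCN+ LT-HSCs, 14.4 ± 1.76 CPM in EMCN- LT-HSCs and 0.521 ± 0.611 CPM in GMPs (SD, n = 4, 3 and 4), so EMCN- LT-HSCs were not free of Emcn transcript. All 12 stem cell markers, among them Procr, Mecom and Hlf, were higher in each LT-HSC fraction than in GMPs. Of all genes tested, 31.9% were higher in EMCN+ and 28.3% in EMCN- LT-HSCs than in GMPs. Of 12 GMP markers, among them Mpo and Elane, 12 were lower in EMCN+ and 11 in EMCN- LT-HSCs than in GMPs. Of all genes tested, 29.4% and 24.4% were lower in these comparisons. Summed levels of 12 endothelial markers were 410 to 530 CPM in EMCN+ LT-HSCs, 346 to 410 CPM in EMCN- LT-HSCs and 88.3 to 113 CPM in GMPs, where Cdh5 and Esam were at 0. The 10 megakaryocyte and platelet markers summed to 188 to 216 CPM in EMCN+ LT-HSCs, 265 to 418 CPM in EMCN- LT-HSCs and 259 to 295 CPM in GMPs, where Gp1bb and Ppbp were at 0. Most of that sum was Rap1b, at 127 CPM in EMCN+ LT-HSCs, 192 CPM in EMCN- LT-HSCs and 227 CPM in GMPs, while of the 7 markers tested 4 were higher and 1 lower in EMCN+ and 6 higher and none lower in EMCN- LT-HSCs than in GMPs. The 12 mature myeloid markers summed to 87.4 to 122 CPM in EMCN+ LT-HSCs, 102 to 131 CPM in EMCN- LT-HSCs and 261 to 733 CPM in GMPs. The LT-HSC fractions also differed from each other. In EMCN+ against EMCN- LT-HSCs 5 of the 12 stem cell markers were higher, where 0.771% of all genes were, and none was lower. Of the 7 megakaryocyte and platelet markers tested 4 were lower, where 1.19% of all genes were, and none was higher. Of the 12 GMP markers 1 was lower, and no endothelial or mature myeloid marker was called. The part of these marker differences in the results was not tested.

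**Figure D1:**
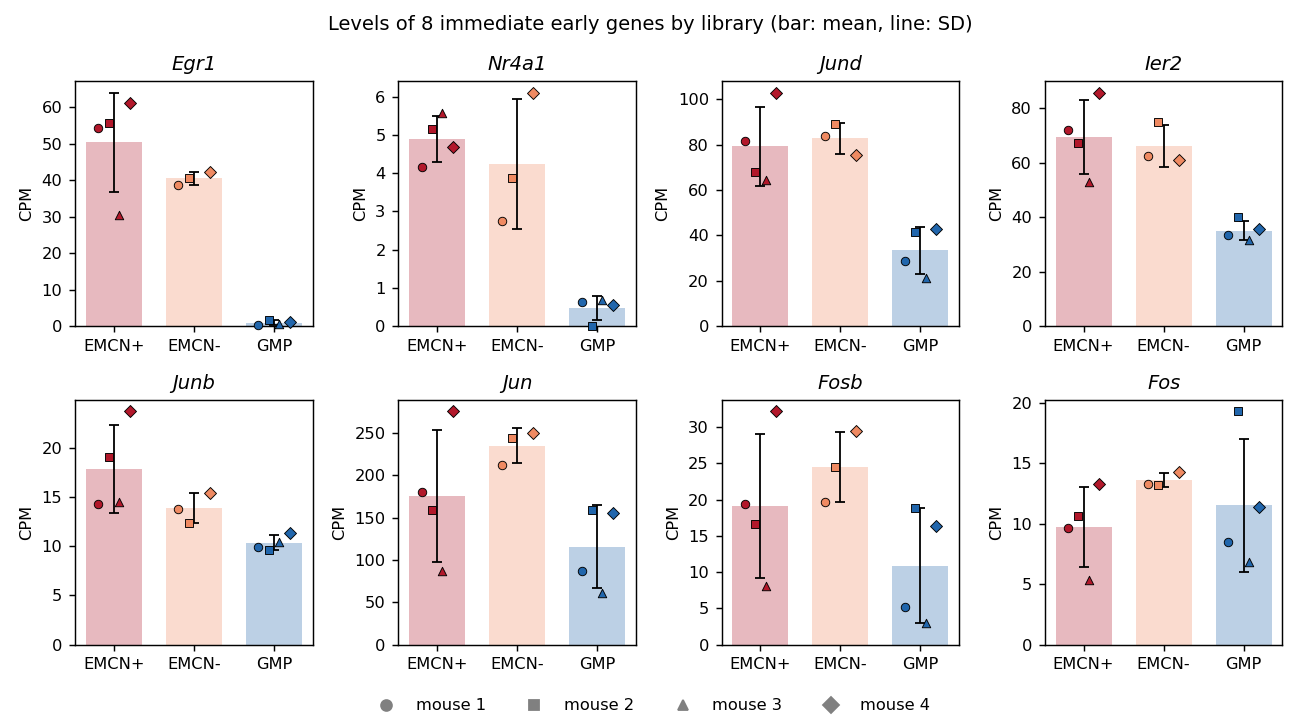
CPM with TMM factors of the 8 tested members in EMCN+ LT-HSCs, EMCN- LT-HSCs and GMPs, with each library as a symbol by mouse, the bar at the group mean and the line at ± 1 SD. Egr1 averaged 50.4, 40.5 and 0.898 CPM and Fos 9.72, 13.6 and 11.5 CPM in these groups, and libraries of mouse 3 (triangles) are the lowest of their group for Fos, Fosb, Jun, Jund and Ier2.

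Among the members, LT-HSCs were set apart from GMPs most strongly by Egr1 and Nr4a1, and also by Jund and Ier2, all of which were higher in both LT-HSC fractions. Junb was higher in EMCN+ LT-HSCs than in GMPs, while Jun, Fosb and Fos did not pass the test in either comparison. With the mouse, which the populations share, fitted as a block, Jun and Fosb passed in both. In EMCN+ LT-HSCs against GMPs, 5 of the 8 tested members were called, all of them higher, where 61.3% of all genes tested were called and 31.9% were called higher (edgeR quasi-likelihood test, Benjamini-Hochberg adjusted p below 0.05). In EMCN- LT-HSCs against GMPs, 4 of 8 were called, all higher, where 52.7% of all genes were called and 28.3% were called higher. The share of members called was thus close to the share of all genes called in either direction. The median log2 change of the 8 members was 0.88 in EMCN+ and 1.08 in EMCN- LT-HSCs against GMPs, beside 0.04 and 0.03 over all genes tested. The 2 comparisons share the GMP libraries. In bulk RNA, fewer cells of a type and less RNA per cell cannot be told apart.

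Egr1 encodes the best known of the EGR zinc finger factors and lies on chromosome 18 (ENSMUSG00000038418.7). Its level was 54.4, 55.6, 30.5 and 61.2 CPM in the EMCN+ LT-HSC libraries of mice 1 to 4, 38.7, 40.5 and 42.3 CPM in the EMCN- LT-HSC libraries of mice 1, 2 and 4, and 0.158, 1.63, 0.683 and 1.12 CPM in the GMP libraries of mice 1 to 4. Every LT-HSC library stood far above every GMP library, which held 20 Egr1 counts between them. The log2 change was 5.78 ± 0.34 (SE) in EMCN+ LT-HSCs against GMPs, 54.8-fold (edgeR adjusted p = 1.39e-09), and 5.46 ± 0.36 in EMCN- LT-HSCs against GMPs, 44.1-fold (edgeR adjusted p = 7.55e-09). Divided by exon length, its mean level stood at percentile 80.6 in EMCN+ LT-HSCs, 74.4 in EMCN- LT-HSCs and 9.13 in GMPs. The ranking covered the 14900 tested genes with a known exon length.

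Egr2 (chr10:67535475-67542188 on GRCm38) and Egr3 (chr14:70077203-70082614), relatives with the same type of zinc finger domain, were close to the limit of detection. Egr2 had 9, 0, 0 and 4 counts in EMCN+ LT-HSC libraries, 0, 1 and 0 in EMCN- LT-HSC libraries and 1, 4, 0 and 1 in GMP libraries. Egr3 had 3, 6, 0 and 1 counts in EMCN+ LT-HSC libraries, 0, 2 and 1 in EMCN- LT-HSC libraries and 0, 2, 0 and 0 in GMP libraries. The groups overlapped for both genes. A count of 0 in a library allows up to 3 counts, or 0.209 to 0.705 CPM, and no fold change is given for either gene at so few counts. Egr1 therefore made up 98.7 ± 1.19% of the summed Egr1, Egr2 and Egr3 level per kilobase of transcript in EMCN+ LT-HSCs and 99.4 ± 0.662% in EMCN- LT-HSCs, against 70.7 ± 25.3% in GMPs (SD, n = 4, 3 and 4), where that sum was 0.292 CPM per kilobase.

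Nr4a1 (ENSMUSG00000023034.7, chr15:101254269-101274795 on GRCm38), which encodes NUR77, showed the same grouping at a low level. It had 4.17, 5.16, 5.57 and 4.69 CPM in EMCN+ LT-HSC libraries, 2.75, 3.88 and 6.11 CPM in EMCN- LT-HSC libraries and 0.631, 0, 0.683 and 0.56 CPM in GMP libraries. Both LT-HSC fractions lay above all GMP libraries, which held 4, 0, 3 and 3 counts. The change was 3.38 ± 0.55 log2 units in EMCN+ LT-HSCs against GMPs, 10.4-fold (edgeR adjusted p = 1.8e-05), and 3.15 ± 0.58 in EMCN- LT-HSCs against GMPs, 8.9-fold (edgeR adjusted p = 0.000106). Unlike the AP-1 genes, its highest EMCN+ library was that of mouse 3.

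Among the JUN genes, Jund, whose product is often made at a steady level rather than induced, was the member with the clearest difference. Jund (chr8:70698949-70700616) had 81.6, 68.2, 64.4 and 103 CPM in EMCN+ LT-HSC libraries, 84.1, 89.1 and 75.4 CPM in EMCN- LT-HSC libraries and 28.7, 41.5, 21.2 and 42.7 CPM in GMP libraries. No LT-HSC library reached down to the GMP range. Its log2 change was 1.23 ± 0.21 in EMCN+ LT-HSCs against GMPs, 2.35-fold (edgeR adjusted p = 0.000194), and 1.3 ± 0.22 in EMCN- LT-HSCs against GMPs, 2.46-fold (edgeR adjusted p = 0.000277). Jund overlaps the antisense gene Gm11175 and, as the strand setting of the counting is not given in the sources used here, reads of the pair may not be separated; the same holds for Jun with Junos and for Junb with Prdx2 on the opposite strand.

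Junb (chr8:84974484-84978718), whose product can oppose JUN at AP-1 sites, differed between EMCN+ LT-HSCs and GMPs by less than Jund did. It had 14.3, 19.1, 14.5 and 23.8 CPM in EMCN+ LT-HSC libraries, 13.8, 12.4 and 15.5 CPM in EMCN- LT-HSC libraries and 9.94, 9.63, 10.5 and 11.4 CPM in GMP libraries. All LT-HSC libraries were above all GMP libraries. The change in EMCN+ LT-HSCs against GMPs was 0.78 ± 0.19 log2 units, 1.72-fold (edgeR adjusted p = 0.00143). In EMCN- LT-HSCs against GMPs it was 0.42 ± 0.21 log2 units with a 95% interval of -0.02 to 0.87 (edgeR adjusted p = 0.105, and 0.042 with upper-quartile factors). Whether the 2 fractions differ in Junb is given by their own comparison, 0.36 ± 0.21, which did not pass (edgeR adjusted p = 0.459).

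Jun (chr4:95049034-95052222), the founding AP-1 subunit, was the most abundant member in CPM and varied widely within groups. It had 180, 159, 86.9 and 276 CPM in EMCN+ LT-HSC libraries, 212, 244 and 250 CPM in EMCN- LT-HSC libraries and 87.2, 159, 61 and 155 CPM in GMP libraries. EMCN+ libraries overlapped the GMP range and reached above it, whereas the EMCN- libraries lay above all GMP libraries. The change was 0.59 ± 0.40 log2 units in EMCN+ LT-HSCs against GMPs (95% interval -0.32 to 1.51, edgeR adjusted p = 0.235) and 1.02 ± 0.43 in EMCN- LT-HSCs against GMPs (0.04 to 2, edgeR adjusted p = 0.0767). In EMCN- LT-HSCs against GMPs the call of Jun depended on the method, with an adjusted p of 0.0252 in DESeq2, 0.0107 in limma-voom and 0.0155 in edgeR without robust dispersions, and with the mouse as a block Jun passed in both comparisons.

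Fosb and Fos encode the subunits that depend on a JUN partner. Fosb (chr7:19302696-19310051) had 19.4, 16.7, 8.13 and 32.2 CPM in EMCN+ LT-HSC libraries, 19.7, 24.5 and 29.4 CPM in EMCN- LT-HSC libraries and 5.21, 18.9, 2.96 and 16.4 CPM in GMP libraries. The GMP libraries of mice 2 and 4 reached the EMCN+ range, and those of mice 1 and 3 were the lowest of all. Its log2 change was 0.77 ± 0.59 in EMCN+ LT-HSCs against GMPs (95% interval -0.57 to 2.11, edgeR adjusted p = 0.293) and 1.15 ± 0.63 in EMCN- LT-HSCs against GMPs (-0.29 to 2.58, edgeR adjusted p = 0.162), where limma-voom gave an adjusted p of 0.032. Fos (chr12:85473890-85477273) had 9.63, 10.6, 5.35 and 13.3 CPM in EMCN+ LT-HSC libraries, 13.3, 13.2 and 14.3 CPM in EMCN- LT-HSC libraries and 8.52, 19.3, 6.83 and 11.4 CPM in GMP libraries. The highest Fos level was in a GMP library, and the 3 groups overlapped. The log2 change of Fos was -0.27 ± 0.30 in EMCN+ LT-HSCs against GMPs (95% interval -0.89 to 0.36, edgeR adjusted p = 0.462) and 0.23 ± 0.32 in EMCN- LT-HSCs against GMPs (-0.44 to 0.91, edgeR adjusted p = 0.576).

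Fitting the mouse as a block, since libraries with the same number come from the same animal, brought Jun and Fosb past the threshold in both comparisons. In EMCN+ LT-HSCs against GMPs the blocked log2 change was 0.6 for Jun (edgeR adjusted p = 0.00815) and 0.91 for Fosb (edgeR adjusted p = 0.0148), so that 7 of 8 members were called, where 62.7% of all genes were. In EMCN- LT-HSCs against GMPs it was 0.83 for Jun (edgeR adjusted p = 0.00257) and 0.99 for Fosb (edgeR adjusted p = 0.0161), so that 6 of 8 were called, where 53.2% of all genes were. Scaling by total counts in place of TMM moved the median of all genes to 0.86 in EMCN+ and 0.75 in EMCN- LT-HSCs against GMPs, and under it Fos in EMCN+ LT-HSCs stood at 0.57 in place of -0.27 log2 units. Of all genes called, 82.7% were then higher in EMCN+ and 84.8% in EMCN- LT-HSCs, against 52% and 53.7% with TMM factors. With TMM factors the medians of all genes are 0.04 and 0.03.

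Ier2 (chr8:84661331-84662852), a nuclear protein of early response to growth factors, was among the highest members. It had 72.2, 67.3, 52.8 and 85.8 CPM in EMCN+ LT-HSC libraries, 62.4, 74.9 and 61.1 CPM in EMCN- LT-HSC libraries and 33.3, 40, 31.6 and 35.5 CPM in GMP libraries. All LT-HSC libraries were above all GMP libraries. Its log2 change was 0.98 ± 0.14 in EMCN+ LT-HSCs against GMPs, 1.97-fold (edgeR adjusted p = 2.59e-06), and 0.91 ± 0.15 in EMCN- LT-HSCs against GMPs, 1.88-fold (edgeR adjusted p = 2.17e-05). Counted by ranges alone, 5 members in EMCN+ and 7 in EMCN- LT-HSCs lay above all GMP libraries, where 29.6% and 28.7% of all tested genes did. None lay below all GMP libraries in either fraction, where 27.7% of genes did in EMCN+ and 25.8% in EMCN- LT-HSCs.

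**Figure D2:**
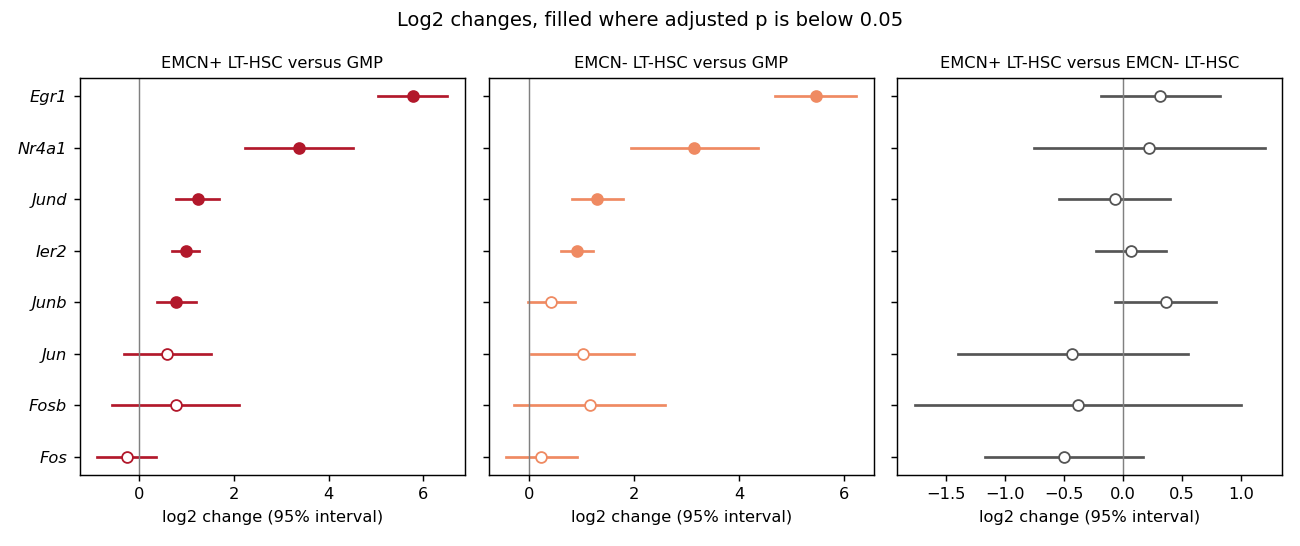
Log2 changes of the 8 tested members with 95% intervals (lines) in EMCN+ LT-HSCs against GMPs, EMCN- LT-HSCs against GMPs and EMCN+ against EMCN- LT-HSCs, on axes of different width, filled where the edgeR adjusted p is below 0.05. Egr1 is at 5.78 and 5.46 in the first pair of panels, and every interval in the third panel includes 0.

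Between EMCN+ and EMCN- LT-HSCs, no member was called, where 1.96% of all genes tested were (0.771% higher and 1.19% lower). At an unadjusted p below 0.05, 2076 of the 14915 genes and none of the 8 members passed in the edgeR fit, and neither DESeq2 nor limma-voom called a member. The ranges of all 8 members overlapped, where 7.25% of all genes had every EMCN+ library above and 6.99% every EMCN+ library below the EMCN- libraries. The log2 changes of the members ran from -0.5 for Fos to 0.36 for Junb, with a median of 0. The intervals set how large a difference these libraries could still hold: -0.23 to 0.36 log2 units for Ier2, -0.54 to 0.4 for Jund, -0.07 to 0.79 for Junb, -0.75 to 1.2 for Nr4a1, -1.17 to 0.17 for Fos, -1.4 to 0.55 for Jun and -1.76 to 1 for Fosb. The intervals of Fosb, Jun and Nr4a1 were the widest. With total-count scaling no member was called either, while the median of all genes stood at 0.11 and 76.3% of the genes called were higher in EMCN+ LT-HSCs, against 39.2% with TMM factors.

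Within mice, Egr1 was the member with the steadiest difference. It was higher in the EMCN+ library by 0.49, 0.45 and 0.53 log2 units in mice 1, 2 and 4, that is in 3 of 3 pairs. Over all libraries its log2 change was 0.31 ± 0.23 (95% interval -0.19 to 0.82, edgeR adjusted p = 0.616), and the EMCN+ library of mouse 3, which has no EMCN- partner, was the only EMCN+ library below the EMCN- range. In the 6 libraries of complete pairs with the mouse as a block, Egr1 passed at 0.48 (edgeR adjusted p = 0.0142) as the only member, where 6.76% of all genes were called. In all 11 libraries with the mouse as a block it did not pass, at 0.49 (edgeR adjusted p = 0.178). Fos was lower in the EMCN+ library in 3 of 3 pairs, by -0.46, -0.31 and -0.11 log2 units, and Junb was higher in 3 of 3, by 0.05, 0.61 and 0.61. The other tested members differed in sign between mice. The share of all tested genes that keep their sign in 3 of 3 pairs is not given here. The signs within pairs are therefore a description.

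The ratio of Egr1 to Fos counts within a library does not depend on how libraries are scaled. It was 5.65, 5.24, 5.71 and 4.6 in EMCN+ LT-HSC libraries, 2.91, 3.06 and 2.95 in EMCN- LT-HSC libraries and 0.0185, 0.0847, 0.1 and 0.0984 in GMP libraries. The 3 groups did not overlap, and the EMCN+ library of mouse 3, low in both genes, had the highest ratio. The ratio was chosen after its values had been seen and is given as a description.

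**Figure D3:**
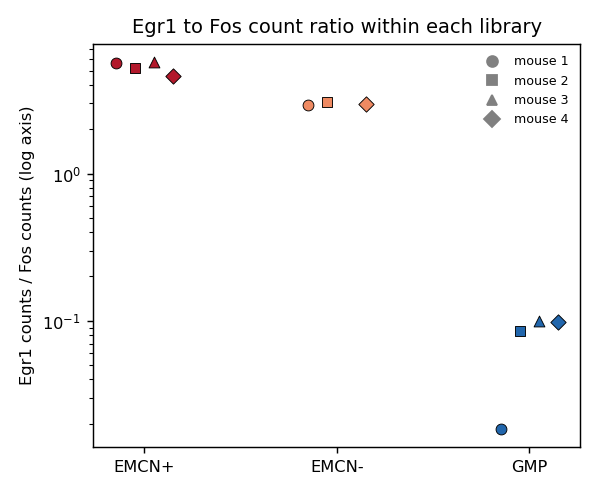
Ratio of Egr1 to Fos counts in each library on a log axis, by group, with a symbol for each mouse. EMCN+ LT-HSC libraries lie at 4.6 to 5.71, EMCN- LT-HSC libraries at 2.91 to 3.06 and GMP libraries at 0.0185 to 0.1.

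Divided by exon length, levels can be compared between genes. In EMCN+ LT-HSCs, Jun (55 ± 24.5 CPM per kilobase), Jund (47.6 ± 10.6) and Ier2 (45.7 ± 8.95) led and did not differ beyond their spread (SD, n = 4). Egr1 followed at 11.2 ± 3.03 CPM per kilobase, then Junb at 7.79 ± 1.97, Fos at 4.13 ± 1.4, Fosb at 3.06 ± 1.6 and Nr4a1 at 1.4 ± 0.172. The ranges of mean ± SD overlapped between Egr1 and Junb, between Fos and Fosb and between Fosb and Nr4a1, but not between Ier2 and Egr1 or between Junb and Fos. In EMCN- LT-HSCs the order of these levels was Jun, Jund, Ier2, Egr1, Junb, Fos, Fosb and Nr4a1 as well, with Jun at 73.7 ± 6.33 and Jund at 49.7 ± 4.16 CPM per kilobase (SD, n = 3). In GMPs, Jun (36.2 ± 15.4), Ier2 (23.1 ± 2.38) and Jund (20.1 ± 6.23) again led, Fos (4.89 ± 2.34) and Junb (4.5 ± 0.334) came next, and Egr1 (0.2 ± 0.14) and Nr4a1 (0.134 ± 0.0902) were last of the tested members (CPM per kilobase, SD, n = 4).

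Summed per kilobase, the JUN genes reached 110 ± 36.3 CPM in EMCN+ LT-HSCs, 129 ± 6.22 in EMCN- LT-HSCs and 60.8 ± 21.6 in GMPs, and the 2 FOS genes 7.19 ± 2.96 in EMCN+ LT-HSCs, 9.73 ± 0.999 in EMCN- LT-HSCs and 6.63 ± 3.52 in GMPs (SD, n = 4, 3 and 4). Transcripts of Fos and Fosb together were thus far below those of the JUN genes in every population. The sum leaves out the related genes Fosl1 and Fosl2. Over the 11 libraries Fosl2 held 1509 counts, beside 1329 of Fosb and 858 of Fos, and Fosl1 held 48. Within the FOS pair, Fosb made up 41.1 ± 5.31% in EMCN+ LT-HSCs, 40.2 ± 3.95% in EMCN- LT-HSCs and 23.7 ± 9.34% in GMPs. Every LT-HSC library was above every GMP library in this share (two-sided exact permutation test, p = 0.0286 for EMCN+ and p = 0.0571 for EMCN- LT-HSCs against GMPs, and 0.137 each after adjustment over 12 tests of shares). Jund made up 44.4 ± 6.37% of the JUN sum in EMCN+ LT-HSCs, 38.4 ± 3.29% in EMCN- LT-HSCs and 33.5 ± 1.84% in GMPs (exact permutation p = 0.0286 for EMCN+ LT-HSCs against GMPs, adjusted 0.137). Junb made up 7.3 ± 1.51% in EMCN+ LT-HSCs, with no overlap with 4.68 ± 0.613% in EMCN- LT-HSCs (exact permutation p = 0.0571, adjusted 0.137). None of the 12 tests of shares passed after adjustment, and 0.0286 is the smallest p that these group sizes allow. A single test at that p could not pass after adjustment over 12 tests. The adjusted values therefore cannot decide whether a share differs.

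Most pairs of members deviated in the same direction from library to library within groups, with Nr4a1 apart. Deviations of log2 CPM from the group mean were correlated between members with a median Pearson r of 0.6 over 28 pairs of genes, of which 22 were positive (range -0.66 to 0.97), across the 11 libraries. Over all pairs of the 14915 tested genes the median r was 0. Without the 2 libraries farthest from the median of the first gene of each pair, the members' median r was 0.69 in the 11 libraries; in the 7 LT-HSC libraries alone it was 0.73, and 0.21 without the 2 farthest, so that there it rests on those libraries. Libraries share mice, depth and handling, so these values are descriptions. The closest pair was Fosb and Jun (r = 0.97, Spearman rho = 0.95, and r = 0.97 without the 2 libraries farthest from the median), followed by Fos and Jun and by Fosb and Jund (r = 0.92 each). Egr1 followed Fos with r = 0.77 (rho = 0.93, and 0.84 without the 2 farthest libraries). Over the 11 libraries Nr4a1 ran against 6 of the other 7 members (r = -0.43 to -0.66) and stood at 0.23 with Junb. Without the 2 farthest libraries its r with Fosb was 0.01 and with Egr1 -0.04, so those values rest on few libraries. In the 7 LT-HSC libraries alone its r was -0.14 with Egr1, -0.13 with Fos, 0.02 with Fosb and -0.12 with Jun. There it was -0.42 with Jund, -0.3 with Ier2 and 0.19 with Junb. The GMP libraries of mice 1 to 4 held only 4, 0, 3 and 3 Nr4a1 counts.

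**Figure D4:**
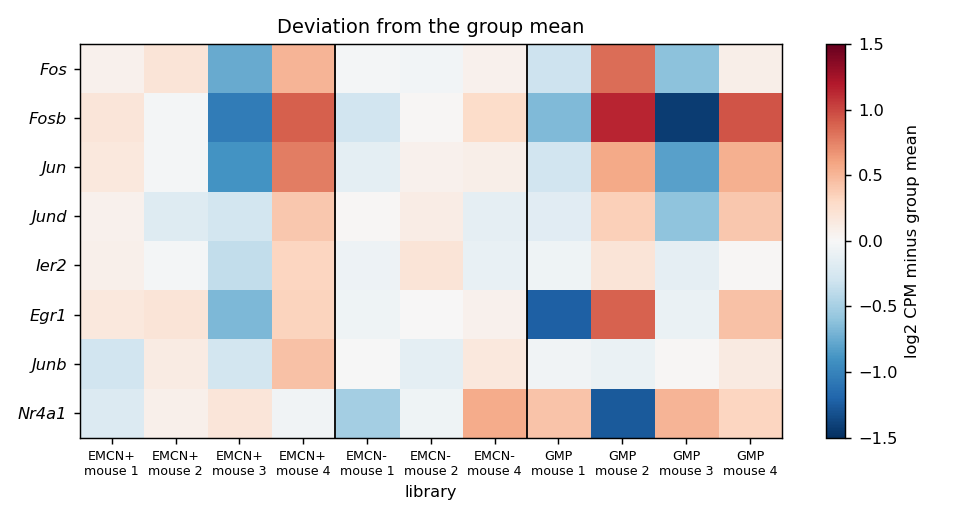
Deviation of log2 CPM (prior count 2) from the group mean for each tested member (down) in each library (across), from blue for below to red for above, with lines between the groups. Columns of mouse 3 are blue for Fos, Fosb, Jun, Jund and Ier2, with mean deviations over the 8 members of -0.51 in EMCN+ LT-HSCs and -0.4 in GMPs, and those of mouse 4 are mostly red.

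By value, the deviations followed the mouse in part, but the test of the mouse called no member. The mean deviation over the 8 members was 0.02, 0.04, -0.51 and 0.45 log2 units in the EMCN+ libraries of mice 1 to 4, -0.14, 0.02 and 0.12 in the EMCN- libraries of mice 1, 2 and 4, and -0.29, 0.33, -0.4 and 0.36 in the GMP libraries of mice 1 to 4. Mouse 3 was lowest in both populations in which it was sequenced, and mouse 4 was highest in all 3. In an F test of the mouse in the fit with group, 0 of 8 members and 0.168% of all genes were called; the edgeR adjusted p was 0.138 for Jun and 0.201 for Fosb, with unadjusted p of 0.00061 and 0.0017, and 0.391 or more for the others. With total-count scaling Jun passed (edgeR adjusted p = 0.00409), and without the EMCN+ library of mouse 2, the GMP library of mouse 1 or the GMP library of mouse 2 both passed, at 0.00498, 0.0012 and 0.021 for Jun and 0.0176, 0.00557 and 0.0143 for Fosb. Leaving out mouse 3 kept 5 members called in EMCN+ LT-HSCs against GMPs, where 8464 genes were called, 4384 of them higher. It gave 5 in EMCN- LT-HSCs against GMPs, where 7533 genes were called, 4017 of them higher. In the EMCN- comparison Jun then passed at 0.81 (edgeR adjusted p = 0.038).

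Outside the members, the 5 genes of at least 5 CPM whose deviations were most like the members' mean deviation were Zfp36 (r = 0.95), Dusp1 (r = 0.95), Gpatch2 (r = 0.94), Trf (r = 0.92) and Gramd1b (r = 0.92), of 10189 genes ranked over the 11 libraries. Zfp36 encodes the RNA-binding protein tristetraprolin, which speeds the decay of early response transcripts, and Dusp1 encodes a phosphatase that inactivates MAP kinases. In the 7 LT-HSC libraries alone the 5 were others, led by Clec16a and Map3k2 (r = 0.99 each). With a prior count of 0.5, Dusp1, Trf and Gramd1b were again among the 5.

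The other genes of the response differed between LT-HSCs and GMPs as follows. Of 32 further early response genes, 27 were tested, and 14 were higher and 6 lower in EMCN+ LT-HSCs than in GMPs, with a median log2 change of 1.04, where 31.9% of all genes were higher and 29.4% lower. In EMCN- LT-HSCs against GMPs 14 were higher and 4 lower, with a median of 0.61, where 28.3% of all genes were higher and 24.4% lower. These shares of all genes are the background of each list that follows. Rgs1, which dampens G protein signals, averaged 86.2 ± 9.11 CPM in EMCN+ LT-HSCs, 98.6 ± 13.1 in EMCN- LT-HSCs and 3.92 ± 0.582 in GMPs (SD, n = 4, 3 and 4), changes of 4.44 ± 0.15 and 4.64 ± 0.16 log2 units in EMCN+ and EMCN- LT-HSCs against GMPs (edgeR adjusted p = 2.63e-15 and 3.83e-15). Zfp36l2, a relative of tristetraprolin, was higher by 1.81 ± 0.11 in EMCN+ and 1.54 ± 0.11 in EMCN- LT-HSCs, and Nfkbia, the inhibitor of NF-kappaB, by 1.35 ± 0.14 in EMCN+ and 1.36 ± 0.15 in EMCN- LT-HSCs. Ppp1r15a, which directs the dephosphorylation of eIF2alpha under stress, averaged 73.6 ± 18.3 CPM in EMCN+ LT-HSCs, 70.6 ± 14.8 in EMCN- LT-HSCs and 9.36 ± 2.18 in GMPs, a change of 2.91 ± 0.24 in EMCN- LT-HSCs against GMPs (edgeR adjusted p = 1.8e-07). Of the lower genes, 4 were chosen after their values had been seen. Klf4, a Krüppel-like factor of monocyte differentiation, stood at -3.23 ± 0.40 in EMCN+ and -2.48 ± 0.43 in EMCN- LT-HSCs against GMPs, and the stress gene Gadd45b at -1.96 ± 0.32 in EMCN+ and -1.63 ± 0.36 in EMCN- LT-HSCs. Rgs2, a relative of Rgs1, stood at -1.32 ± 0.17 in EMCN+ and -0.95 ± 0.19 in EMCN- LT-HSCs, and the small GTPase gene Rhob at -0.99 ± 0.15 in EMCN+ and -1.28 ± 0.16 in EMCN- LT-HSCs (edgeR adjusted p from 7.6e-07 to 0.000201 for Rgs2 and 5.64e-06 and 1.52e-06 for Rhob). With total-count scaling Rhob in EMCN+ LT-HSCs (-0.16) and Rgs2 in EMCN- LT-HSCs (-0.22) did not pass.

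Plk2, a polo-like kinase gene, was the only early response gene outside the members called between the LT-HSC fractions. It averaged 10.3 ± 1.38 CPM in EMCN+ LT-HSCs and 2.91 ± 0.967 CPM in EMCN- LT-HSCs (SD, n = 4 and 3), with no overlap, a change of 1.84 ± 0.41 log2 units (edgeR adjusted p = 0.0204). The call was lost without the EMCN+ library of mouse 2 (0.0734) or 4 (0.0673) and without the EMCN- library of mouse 1 (0.152) or 2 (0.0801). In GMPs Plk2 had 5 counts in all 4 libraries.

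The inhibitors that feed back on the early response were mostly higher in LT-HSCs. Of 15 such genes, 13 were higher and 1 was lower in EMCN+ LT-HSCs than in GMPs (median log2 change 1.81), where 31.9% of all genes were higher and 29.4% lower. In EMCN- LT-HSCs against GMPs 13 were higher and none lower (median 1.62), where 28.3% of all genes were higher. Of the 15, 6 also belong to the list of early response genes or to that of relatives and partners of the members. Dusp4, a nuclear MAP kinase phosphatase, averaged 26.7 ± 4.48 CPM in EMCN+ LT-HSCs, 16.4 ± 3.17 CPM in EMCN- LT-HSCs and 0.242 ± 0.195 CPM in GMPs (SD, n = 4, 3 and 4), changes of 6.78 ± 0.36 and 6.08 ± 0.38 log2 units in EMCN+ and EMCN- LT-HSCs against GMPs (edgeR adjusted p = 1.16e-12 and 3.55e-11). Spred1, an inhibitor of RAS signalling to MAP kinase, was higher by 1.57 ± 0.11 in EMCN+ and 1.39 ± 0.11 in EMCN- LT-HSCs. Nab2, a corepressor that binds EGR1 and is itself an EGR1 target, averaged 18 ± 1.14 CPM in EMCN+ LT-HSCs, 10.6 ± 0.384 CPM in EMCN- LT-HSCs and 2.79 ± 1.28 CPM in GMPs, changes of 2.7 ± 0.27 and 1.93 ± 0.29 in EMCN+ and EMCN- LT-HSCs against GMPs (edgeR adjusted p = 2.22e-08 and 9.47e-06). Spry2, a sprouty inhibitor of receptor kinase signalling, was the gene that was lower, at 9.87 ± 1.54 CPM in EMCN+ LT-HSCs and 14.3 ± 2.91 CPM in GMPs (-0.53 ± 0.21, edgeR adjusted p = 0.0349); it was singled out after its values had been seen. That call was lost in 7 of 24 alternatives, among them those without the EMCN+ library of mouse 2 (adjusted p = 0.0619) or 4 (0.0974) and without the GMP library of mouse 1 (0.122) or 2 (0.0805), and with total-count scaling the change stood at 0.3.

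Between the LT-HSC fractions none of the 15 inhibitors was called (median log2 change 0.18). Every EMCN+ library was above every EMCN- library for Dusp4 (0.7 ± 0.22, edgeR adjusted p = 0.12) and Nab2 (0.76 ± 0.26, edgeR adjusted p = 0.152). In complete pairs with the mouse as a block 3 of the 15 were called higher, among them Dusp4 (0.59, edgeR adjusted p = 0.0352) and Nab2 (0.75, edgeR adjusted p = 0.0228), where 2.83% of all genes were called higher.

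**Figure D5:**
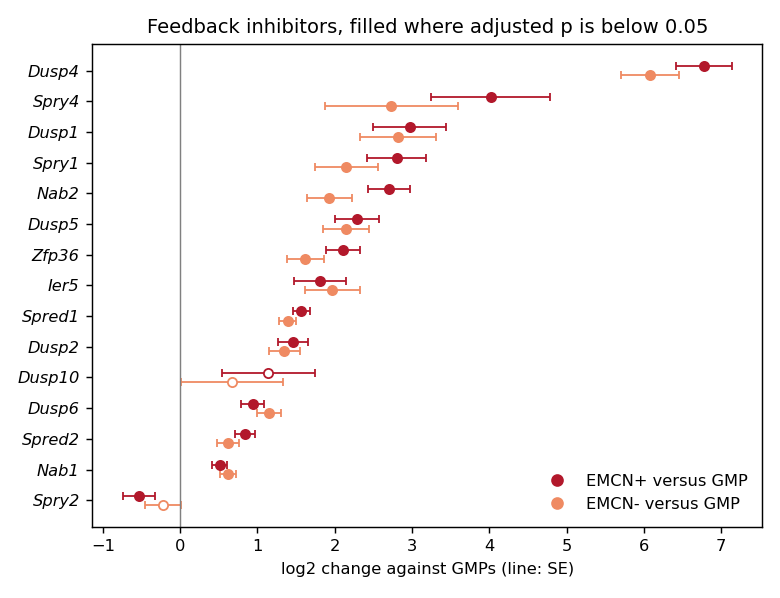
Log2 changes with SE of the 15 feedback inhibitor genes in EMCN+ LT-HSCs (upper symbol) and EMCN- LT-HSCs (lower symbol) against GMPs, filled where the edgeR adjusted p is below 0.05. Dusp4 is at 6.78 and 6.08 and Spry2 at -0.53 and -0.22; both fractions are compared with the same GMP libraries.

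Genes upstream of the members were called about as often as all genes. Of 23 kinases and transcription factors that act on early response promoters, 9 were higher and 5 lower in EMCN+ LT-HSCs than in GMPs (median log2 change 0.09), and 7 were higher and 5 lower in EMCN- LT-HSCs than in GMPs (median 0.09). These are 60.9% and 52.2% called, where 61.3% and 52.7% of all genes were. None was called between the LT-HSC fractions. Mrtfb, a coactivator of serum response factor, averaged 87.8 ± 14.3 CPM in EMCN+ LT-HSCs, 66.9 ± 10.6 CPM in EMCN- LT-HSCs and 19.2 ± 0.97 CPM in GMPs (SD, n = 4, 3 and 4), changes of 2.19 ± 0.13 and 1.79 ± 0.14 log2 units in EMCN+ and EMCN- LT-HSCs against GMPs. Prkca, a protein kinase C gene, was higher by 2.26 ± 0.19 and 2 ± 0.21, and the ELK factors Elk4 and Elk3 were higher by 1.13 ± 0.10 and 0.87 ± 0.11 and by 1.03 ± 0.14 and 0.96 ± 0.15 (EMCN+ and EMCN- LT-HSCs against GMPs, edgeR adjusted p from 1.24e-11 to 1.28e-05 for these 4 genes). Of the lower genes, 4 were chosen after their values had been seen. The kinase genes Prkcd and Rps6ka1 stood at -0.91 ± 0.13 and -0.57 ± 0.11 in EMCN+ and at -0.87 ± 0.15 and -0.70 ± 0.12 in EMCN- LT-HSCs against GMPs. Atf1, of the CREB and ATF factors, stood at -0.59 ± 0.12 in EMCN+ and -0.56 ± 0.14 in EMCN- LT-HSCs, and Srf, which encodes serum response factor, at -0.40 ± 0.15 (edgeR adjusted p = 0.021) in EMCN+ and -0.39 ± 0.16 (0.0465) in EMCN- LT-HSCs. The call of Srf held in 17 of 24 alternatives in EMCN+ and in 8 of 24 in EMCN- LT-HSCs. It was lost in EMCN+ LT-HSCs without the EMCN+ library of mouse 4 (adjusted p = 0.0537) or the GMP library of mouse 2 (0.086) or 3 (0.0547), and in EMCN- LT-HSCs without the EMCN+ library of mouse 1 (0.0541) or 2 (0.0546), the EMCN- library of mouse 1 (0.0685) or 4 (0.213) or the GMP library of mouse 2 (0.142) or 3 (0.0971). In EMCN- LT-HSCs with the mouse as a block the adjusted p was 0.0569, and with total-count scaling Srf was at 0.43 in EMCN+ and 0.33 in EMCN- LT-HSCs and Prkcd, at -0.07 and -0.14, did not pass. With total-count scaling the list shifted with all genes, to 19 higher and none lower of 23 in EMCN+ LT-HSCs and 18 higher and none lower in EMCN- LT-HSCs.

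Of 18 relatives and partners of the members, 12 were tested; 5 were higher and 1 lower in EMCN+ LT-HSCs than in GMPs (median log2 change 0.39), and 7 were higher and 1 lower in EMCN- LT-HSCs (median 0.55). These are 50% and 66.7% called, where 61.3% and 52.7% of all genes were. None was called between the LT-HSC fractions (median -0.03). Batf2 and Maff, basic leucine zipper genes, held 235 and 198 counts in the 4 EMCN+ LT-HSC libraries, 70 and 75 counts in the 3 EMCN- LT-HSC libraries and 3 counts each in the 4 GMP libraries. Nab1, the other EGR1 corepressor, averaged 94 ± 2.24 CPM in EMCN+ LT-HSCs, 101 ± 1.93 CPM in EMCN- LT-HSCs and 66 ± 6.99 CPM in GMPs, changes of 0.51 ± 0.10 and 0.62 ± 0.10 log2 units in EMCN+ and EMCN- LT-HSCs against GMPs (edgeR adjusted p = 0.000117 and 3.9e-05).

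Heat shock and metallothionein genes, which respond to handling stress among other stimuli, had a split of calls against GMPs that turned with the scaling. Of 13 tested, 2 were higher and 7 lower in EMCN+ LT-HSCs than in GMPs (median log2 change -0.53), 4 were higher and 6 lower in EMCN- LT-HSCs than in GMPs (median -0.13), and 1 was lower in EMCN+ than in EMCN- LT-HSCs (median -0.29). With total-count scaling 6 were higher and 4 lower in EMCN+ (median 0.3) and 8 higher and 3 lower in EMCN- LT-HSCs (median 0.59), and without the GMP library of mouse 1 the EMCN- calls were 4 higher and 4 lower. The metallothionein gene Mt1 averaged 0.938 ± 0.166 CPM in EMCN+ LT-HSCs, 1.79 ± 0.89 CPM in EMCN- LT-HSCs and 39.9 ± 4.28 CPM in GMPs, changes of -5.42 ± 0.26 and -4.52 ± 0.28 in EMCN+ and EMCN- LT-HSCs against GMPs. The mitochondrial chaperonin genes Hspe1 and Hspd1 changed by -2.74 ± 0.11 and -0.78 ± 0.11 in EMCN+ LT-HSCs and by -2.25 ± 0.13 and -0.44 ± 0.12 in EMCN- LT-HSCs against GMPs, Hspd1 turning to 0.05 in EMCN+ and 0.28 in EMCN- LT-HSCs with total-count scaling. Dnajb4, a co-chaperone gene, was higher by 1.12 ± 0.13 in EMCN+ and 1.12 ± 0.14 in EMCN- LT-HSCs. Hspe1 was the gene called between the LT-HSC fractions, averaging 60.3 ± 2.7 CPM in the EMCN+ libraries and 85.1 ± 14.2 CPM in the EMCN- libraries (-0.5 ± 0.12, edgeR adjusted p = 0.0323), and 9 of its 24 alternatives lost that call, with adjusted p up to 0.31. The part of cell handling in the members' levels was not tested.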

How the data were processed

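RNA of sorted cells was turned into stranded total RNA libraries (SMARTer pico kit) and read in pairs, per the labels' protocols; the labels also give the molecule as polyA RNA, and which holds was not settled here. The authors deposited estimated counts of each gene in 11 libraries, produced by Salmon after cutadapt, per the submitters' processing notes; tool versions, genome build, annotation and strand setting are not given in the sources used here. No molecular identifiers are stated, so limits cover counting error only. Estimated counts were rounded to whole numbers and all libraries entered 1 quasi-likelihood fit (edgeR 4.0.16, R 4.3.3). The fit used TMM factors, a filter at a minimum count of 10 by group (14915 genes with 99.7% of counts), robust dispersions and no mouse block, with Benjamini-Hochberg adjustment over all genes and a threshold of 0.05.

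Log2 CPM used a prior count of 2. Coordinates and exon lengths came from GENCODE M21 on GRCm38 (54094 of 54347 identifiers matched without the version number and 53307 with it), and promoters from RefSeq on GRCm38.p6. The test was checked on simulated data. Mouse numbers come from the labels and mark the same animal, so they pair libraries. Deviations from group means of same-mouse EMCN+ and EMCN- libraries were correlated with r = 0.205, 0.165 and 0.223 in mice 1, 2 and 4. Between different mice r ran from -0.246 to 0.19. The highest of these, EMCN+ of mouse 3 with EMCN- of mouse 1, exceeded the same-mouse value of mouse 2. The pairing therefore rests on the labels and not on these values. Separate mice make replicates biological, with libraries of 1 mouse sharing the animal.

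Members and gene lists were chosen with earlier results of these data known. Named genes were the 10 members, up to 4 called genes per list with the smallest p (up to 2 where none was called), and the 5 genes most like the members' mean deviation; not every gene so allowed is named, and 9 lower genes were added after their values had been seen. Alternatives were RLE, upper-quartile and total-count scaling, DESeq2 1.42.0, limma-voom (limma 3.58.1), a stricter filter (5 CPM in 3 libraries) or none, no robust estimate, mouse as a block, only the 2 groups compared, complete pairs with the block, genes with a symbol, and each library left out. Leaving out mouse 3 was added after seeing the data.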

Additional observations from a re-analysis of the deposited data

Results flagged for a closer look

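Of 16 groups of 4 libraries examined (8 members in EMCN+ LT-HSCs and in GMPs), 2 held a library far from the other 3 on the log2 scale, and chance gives about 1 in 20. Egr1 stood at 30.5 CPM in the EMCN+ LT-HSC library of mouse 3, below 54.4 to 61.2 CPM in the other 3, with a gap of 0.831 of the whole range against a limit of 0.829. Nr4a1 stood at 0 CPM in the GMP library of mouse 2, with 3 or 4 counts in each of the other 3 GMP libraries, a gap of 0.889 of the range on so few counts.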

How the results depend on the processing

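The 5 calls of EMCN+ LT-HSCs and the 4 calls of EMCN- LT-HSCs against GMPs (Egr1, Nr4a1, Jund and Ier2 in both, Junb in EMCN+) kept their direction and passed in all 24 alternatives. With total-count scaling 8 members were called in EMCN- LT-HSCs against GMPs, where 9682 of 14915 genes were called, 8209 of them higher. In EMCN+ LT-HSCs against GMPs 7 members were called, where 10850 genes were, 8973 of them higher. The mouse test called 1 member with this scaling. Jund between the LT-HSC fractions turned to 0.03, and Fos in EMCN+ LT-HSCs against GMPs to 0.57. Hspd1 against GMPs turned to 0.05 in EMCN+ and 0.28 in EMCN- LT-HSCs. Likewise Spry2 turned to 0.3 and 0.51, Rps6ka1 to 0.26 and 0.02, Atf1 to 0.24 and 0.17 and Srf to 0.43 and 0.33 in EMCN+ and EMCN- LT-HSCs. Between the LT-HSC fractions 293 genes were called, 529 without the filter, 451 with DESeq2, 194 without mouse 3 and 55 to 338 with each library left out; 105 and 184 were called without the EMCN+ libraries of mice 2 and 4, and 55, 194 and 191 without the EMCN- libraries of mice 1, 2 and 4. With the mouse as replicate block 374 genes were called and Jund turned to 0.05; in complete pairs with the block 908 genes and 1 member, Egr1, were called. Besides Jun, Fosb and Egr1, the block changed no member's call. With each library left out, changes between the LT-HSC fractions that did not pass ran from -0.22 to 0.02 for Jund (0.02 without mouse 3 as a whole), from -0.04 to 0.18 for Ier2 and from -0.01 to 0.56 for Nr4a1, and Fos in EMCN+ LT-HSCs against GMPs from -0.44 to 0.1. Likewise the mouse test called 0 to 2 members. The median r between members was 0.73 in the 7 LT-HSC libraries (0.21 without the 2 farthest of each pair) and 0.53 with a prior count of 0.5. The cause of these changes was not tested. Few counts limit Egr2, Egr3 and the GMP values of Egr1 and Nr4a1, which rest on 20 and 10 counts.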
